A study of Homo sapiens with 20 samples.

Results

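The regions described here are those pulled down by a normal rabbit IgG antibody, which recognises no RNA modification, in wild type and NAT10 knockout K562 cells. They came from the authors' peak list of IgG against input in each genotype. A region was counted once per transcript, start and end, and was called shared where it had at least 1 base in common with a region of the other genotype on the same transcript, and private otherwise. The wild type list held 45426 regions and the knockout list 77342, together 122768 of the 248767 regions in the 4 deposited lists. The other 125999 regions came from the ac4C antibody (45290 in wild type, 80709 in knockout).

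The cells were K562, a human erythroleukaemia line. In the knockout line, exon 5 of NAT10 was targeted with CRISPR-Cas9, and the number of clones was not given in the sources used here. For acetylated RNA immunoprecipitation sequencing (acRIP-seq), 2 libraries each of input, IgG and ac4C antibody were labelled per genotype. RNA-seq had 2 libraries per genotype. By the labels' protocols, ribosomal RNA was depleted, the RNA was fragmented to about 100 nt, and IgG or the ac4C antibody was bound to Protein A/G beads, whereas the molecule label of the same libraries is polyA RNA. Each genotype had a single IgG list that carries no replicates, so the region counts, lengths and fold values below are descriptions of these lists without a test. Antibody libraries of 1 genotype share their input with the IgG libraries of that genotype, and genotype cannot be told apart from the library set in which it was prepared.

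NAT10 acetylates cytidine in RNA, and the product, N4-acetylcytidine, is written ac4C. In an immunoprecipitation, IgG gives the RNA that stays on beads and antibody without a specific target. Such background is known to depend on how abundant, how long and how structured an RNA is. K562 cells make embryonic and fetal globins and carry GATA1 and TAL1, the regulators of the erythroid programme.

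NAT10 messenger RNA was present at 139 and 144 CPM (counts scaled to a common library total) in the wild type RNA-seq libraries and at 49.9 and 49.3 CPM in the knockout libraries. It fell by 1.51 (SE 0.09) on the log2 scale (adjusted p = 0.000102, edgeR quasi-likelihood test). Its RNA was therefore still counted in the knockout line, at a lower level in both libraries. Of the 9 K562 markers, 8 had IgG regions in both genotypes and KIT had one in wild type alone. A mean of at least 10 CPM was reached by 7 of the 9, and 6976 of all 9746 such genes had regions in both. Among the 7 markers of other cell types, none reached 10 CPM, and 4 had a region in 1 of the lists. Of the 7, 1 was in wild type alone and 3 in knockout alone, against 1.92% and 14.9% of all 60616 genes at any RNA level.

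The shortest transcripts with an IgG region show how the lists treat small RNAs. Regions lay on 14 microRNA transcripts in the knockout list. Of these, 2 matched an entry of the RefSeq table (GRCh38.p14), and both hairpins are printed 5′ to 3′ with the mature microRNA in capitals.
MIR571 (chr4:350157-350252, plus strand): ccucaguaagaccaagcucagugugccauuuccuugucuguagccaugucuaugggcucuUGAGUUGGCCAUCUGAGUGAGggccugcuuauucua
MIR1299 (chr9:40929010-40929092, minus strand): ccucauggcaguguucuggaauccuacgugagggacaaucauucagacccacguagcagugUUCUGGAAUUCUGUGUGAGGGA
The MIR571 hairpin is 96 bases long with a GC content of 50.0%, near the median of 52.1% over the 1562 hairpins of the table. Its region ran from base 3 to base 167, beyond the end of the annotated RNA, with a fold value of 4.56. On MIR1299, a hairpin of 83 bases, the region ran from base 6 to base 229 with a fold value of 23.5. Regions on so short a transcript thus extend past the RNA itself, and the region length is not a length of bound RNA. Across the lists, 3017 knockout regions (3.90%) and 208 wild type regions (0.458%) ran past the end of their transcript.

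The fold value of a region is column 7 of the list, the pull-down signal relative to the expected signal. In each list every fold value was a whole multiple of 1 step (within 0.02 steps). The step was 0.0330 in the wild type IgG list and 0.142 in the knockout IgG list. Each of the 2912 distinct wild type and 881 distinct knockout values came with a single q-value. Within a list, fold values therefore behaved as whole numbers of steps over 1 common denominator, in which no difference in input between regions is visible. The lowest wild type fold value was 1.58, or 48 steps, and the lowest in the knockout 2.28, or 16 steps. The median region stood at 131 steps in wild type and at 37 in knockout. Because the steps differ, a fold value of 1 list is set beside that of the other below relative to all genes, and no difference of a single gene is called a change.

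Shared regions made up 62.6% of the wild type IgG list (28445 regions, 95% Wilson interval 62.2 to 63.1%) and 48.3% of the knockout list (37372 regions, 48.0 to 48.7%). The intervals hold counting error only and take regions as independent, although isoforms of a gene share exons. Private regions numbered 16981 in wild type and 39970 in knockout. Only 18 regions had the same start and end in both. The ac4C antibody lists overlapped between genotypes to a like extent, with 67.7% of wild type and 47.8% of knockout regions shared. Wild type IgG regions were found in the knockout ac4C antibody list in 68.2% of cases, and knockout IgG regions in the wild type ac4C antibody list in 47.8%. Regions near the limit of the rule were few. In the wild type list, 22 regions shared 1 to 10 bases (median fold value 2.04) and 26 private regions lay within 10 bases of a knockout region (median 2.21). In the knockout list these numbers were 58 (median 3.42) and 50 (median 3.70).

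**Figure D1:**
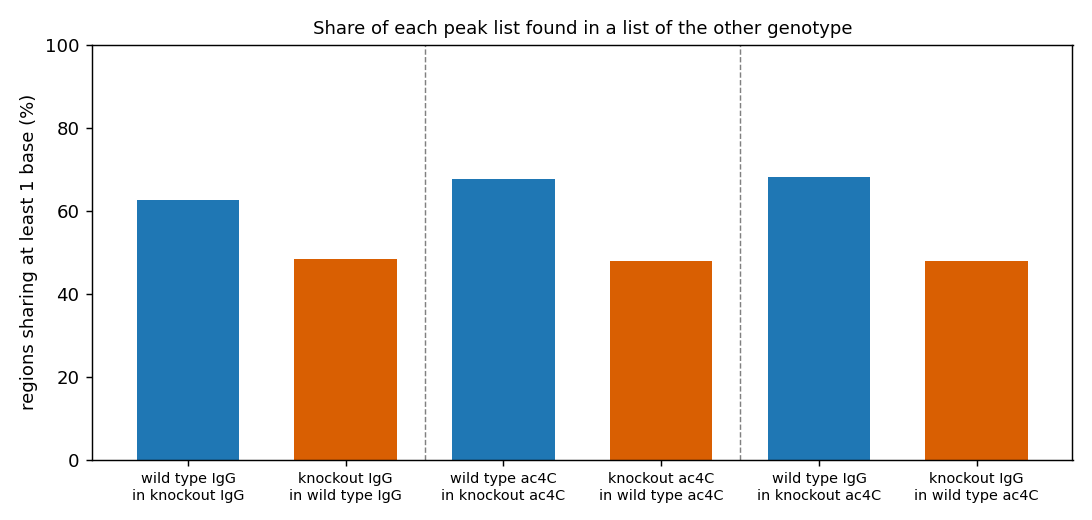
Percentage of the regions of each list (bars, y axis from 0) that share at least 1 base with a region of a list of the other genotype; blue bars are wild type lists and orange bars knockout lists. About 62.6% of wild type IgG regions and 48.3% of knockout IgG regions were shared, and the bars for the ac4C antibody lists stand at 67.7% and 47.8%.

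Most private regions lay on transcripts without any IgG region in the other genotype. This held for 13715 of the 16981 private wild type regions (80.8%) and for 29644 of the 39970 private knockout regions (74.2%). In the wild type, private regions were shorter than shared ones (median 459 against 787 bases) and had lower fold values (median 3.03 against 6.30). In the knockout, private regions were also shorter (251 against 399 bases), but their fold values were similar to those of shared regions (5.27 against 5.12). Private knockout regions were thus short without being weak on the scale of their own list.

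Wild type IgG regions were long and knockout regions short. The median length was 623 bases in wild type (quartiles 369 and 1204) and 296 bases in knockout (202 and 504). A median wild type region covered 49.2% of its transcript and a median knockout region 13.0%. More than 90% of the transcript was covered by 14.4% of wild type and 3.16% of knockout regions. The shortest region was 233 bases in wild type and 135 in knockout. The longest wild type region, 11513 bases, lay on CBX5, which encodes a heterochromatin protein. In the knockout the longest, 20304 bases, lay on NEAT1, the architectural RNA of nuclear paraspeckles. The covered length summed over transcripts was 42789 kb in wild type and 37391 kb in knockout. These sums count exons shared by isoforms more than once. Transcripts with a region numbered 3.98 per gene in wild type and 2.75 in knockout, so the sums do not compare the amount of distinct sequence.

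Several knockout regions often lay within 1 wild type region. Of the shared wild type regions, 6837 (24.0%) overlapped at least 2 knockout regions, with a maximum of 9 on ANKRD52. Among shared knockout regions, 542 (1.45%) overlapped at least 2 wild type regions, with a maximum of 6 on SON. At the median, the shared knockout region was covered by wild type regions over 100% of its length and the shared wild type region by knockout regions over 74.9%. NAT10 itself shows the pattern. On its transcript of 3973 bases, the wild type list held a single region from base 16 to base 3933 with 6 summits and a fold value of 7.72. The knockout list held 4 regions there, at bases 551 to 737, 963 to 1135, 1395 to 1778 and 2118 to 2915, with fold values between 2.42 and 4.41. Over all NAT10 transcripts there were 5 wild type and 14 knockout regions.

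**Figure D2:**
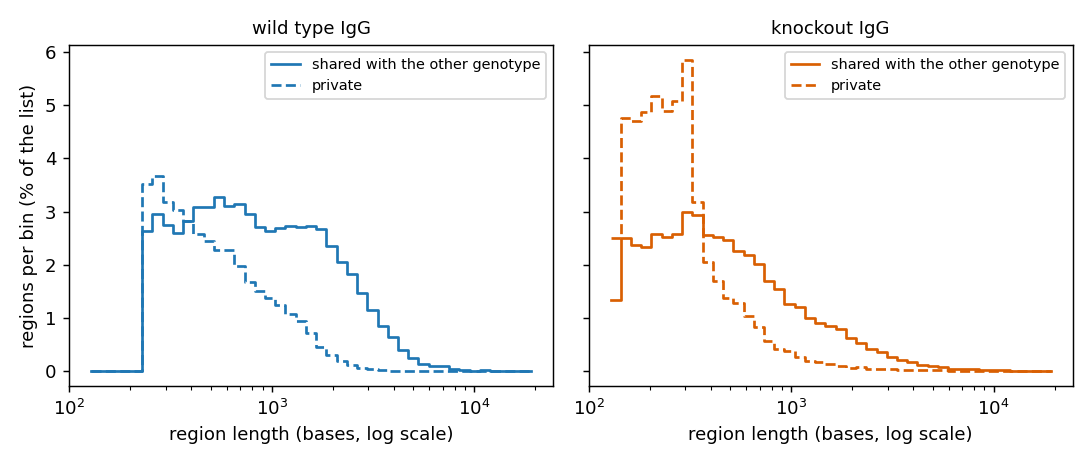
Distribution of region length in bases (x axis, log scale) as a percentage of all regions of the list per bin (y axis), for wild type IgG on the left and knockout IgG on the right; solid lines are shared and dashed lines private regions. Wild type regions begin at 233 bases and knockout regions at 135, and private regions are shorter than shared ones in both lists.

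Protein-coding transcripts carried 61.2% of wild type and 54.9% of knockout IgG regions. Long noncoding RNA (lncRNA) transcripts carried 4.56% and 13.2%. Within the knockout list, this share was 3.86% of shared and 21.9% of private regions, so lncRNA was found mainly among the private ones (8737 regions on 4255 genes). In the wild type list, shared and private regions differed little in this respect (4.69% and 4.33%). Retained-intron transcripts held 14.9% of wild type and 14.8% of knockout regions. Transcripts subject to nonsense-mediated decay held 10.2% and 7.05%. Isoforms of a gene share exons, and a stretch of RNA can be counted on several of them. With 1 transcript kept per gene, the lncRNA share was 9.09% in wild type and 21.1% in knockout.

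Along protein-coding transcripts, divided into 3 equal parts, the highest summit of a region lay in the part at the 3′ end in 40.3% of wild type and 41.0% of knockout regions. The part at the 5′ end held 24.9% and 27.1%. Both IgG lists thus had more regions toward the 3′ end than toward the 5′ end. Private and shared regions were alike in this, with 39.1% and 41.0% of wild type and 41.4% and 40.7% of knockout regions in the part at the 3′ end. The ac4C antibody lists had 37.5% in wild type and 36.2% in knockout there.

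Of the 60616 genes in the RNA-seq table, 9885 (16.3%) had an IgG region in wild type and 17728 (29.2%) in knockout. Both lists shared 8723 genes. Among the 9746 genes with a mean of at least 10 CPM, 7589 (77.9%) had a wild type and 8319 (85.4%) a knockout region. A region in wild type alone was found for 1162 genes (1.92%) and in knockout alone for 9005 (14.9%). Genes in both lists were abundant RNAs, with medians of 47.4 to 49.5 CPM over the 4 RNA-seq libraries. Genes with a region in wild type alone had medians of 10.1 to 11.7 CPM. Genes with a region in knockout alone were mostly near the limit of detection, with medians of 0.107 to 0.193 CPM, and 6211 of them (69.0%) had a mean under 1 CPM.

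Whether a gene had an IgG region followed its RNA level in both genotypes. Among genes above 100 CPM, 94.7% had a wild type and 98.5% a knockout region. Between 10 and 100 CPM these shares were 72.4% and 81.1%. Between 1 and 10 CPM they were 23.1% and 46.5%, and over 0 and up to 1 CPM 3.58% and 21.3%. Even among the 23670 genes with no count in any RNA-seq library, 1.68% had a wild type and 10.2% a knockout region. The lists were closest at high RNA levels and farthest apart, in proportion, at low ones.

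The highest fold value of a gene had its highest median above 100 CPM in both genotypes, and at lower levels the medians had no common order. In the wild type they were 5.01 for genes without a count, 3.69 for genes over 0 and up to 1 CPM, 3.73 between 1 and 10 CPM, 5.08 between 10 and 100 CPM and 12.9 above 100 CPM. In the knockout they were 7.97, 9.39, 9.68, 8.97 and 14.4 in the same classes. Across genes, the highest fold value and the RNA level per kilobase had a Pearson correlation of 0.481 on the log scale in wild type (9364 genes) and 0.103 in knockout (14696 genes). Genes are not independent replicates, and both measures depend on transcript length, so these correlations describe the lists only.

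**Figure D3:**
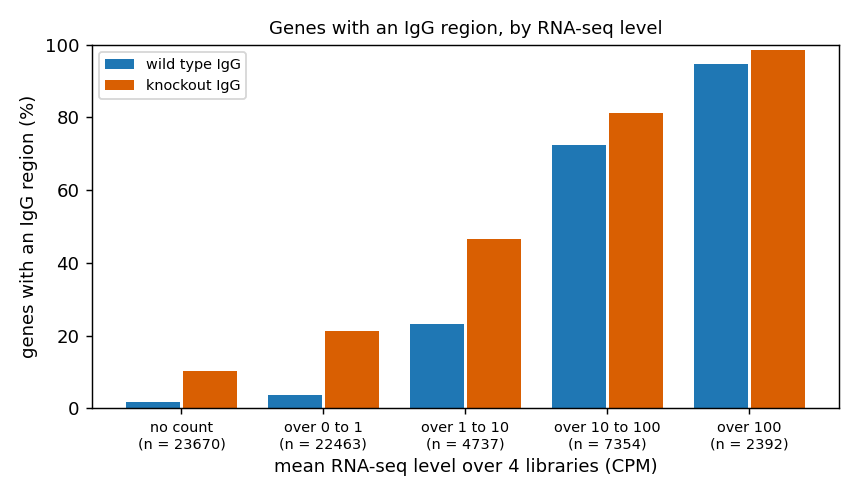
Percentage of genes with an IgG region (bars, y axis from 0) in classes of mean RNA-seq level in CPM (x axis, number of genes in brackets); blue is the wild type and orange the knockout list. The share rises from 1.68% and 10.2% of genes without a count to 94.7% and 98.5% of genes above 100 CPM.

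Small structured RNAs stood apart between the IgG lists. RN7SK, the scaffold RNA that holds the elongation factor P-TEFb inactive, had a fold value of 128 in wild type and 1778 in knockout. RN7SL1, the RNA of the signal recognition particle, had 134 and 1567, and its copy RN7SL2 had 109 and 1203. RPPH1, the RNA of RNase P, which trims transfer RNA precursors, had 15.8 and 910. RMRP, the related RNA of RNase MRP, had 34.0 and 606, and TERC, the telomerase template, 2.77 and 15.8. All 6 members of the structured RNA list found in both lists were higher in knockout, by a median of 3.67 on the log2 scale, against 0.48 over all 8723 genes in both lists. The ac4C antibody lists, with the same inputs, gave RN7SK 127 and 1496, RPPH1 18.6 and 955 and RMRP 34.3 and 602.

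Many more genes of this kind entered the knockout list. Regions on microRNA, small nuclear, small nucleolar, ribosomal and other small RNA transcripts numbered 12 in wild type and 367 in knockout. Genes related to 7SL numbered 4 in wild type and 232 in knockout, and genes related to 7SK 2 and 19. U1 and U2, the small nuclear RNAs that recognise the 5′ splice site and the branch point, had no wild type region and 12 and 17 knockout regions, with median fold values of 183 and 180. SNORD3A, the U3 RNA that guides early cleavage of the ribosomal RNA precursor, had a fold value of 499 in the knockout list alone. SNORA73B and SNORA73A, snoRNAs of the H/ACA class, had 371 and 255, also in the knockout alone. The MIR3648 copies reached 150 and 139, and MIR663A 32.6. In the knockout ac4C antibody list, 2 regions of these genes were found, with fold values of 25.5 and 29.7. Genes of 5S and 5.8S ribosomal RNA had 28 regions in the knockout IgG list and 8 in the knockout ac4C antibody list. Genes related to 7SL, 7SK, U1 and U2 resemble one another in sequence to varying degrees. Reads may therefore have been assigned to several of them, and their number is uncertain.

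The lists also differed in the shortest region they held. No wild type region was shorter than 233 bases, and 98 of the 367 knockout regions lay on transcripts shorter than that, among them the U1 and U2 RNAs and the microRNA hairpins. Of the 12 wild type regions, 1 did so too, that of the neuronal RNA BCYRN1, whose transcript has 200 bases and whose region ran from base 5 to base 310. The other 269 knockout regions lay on transcripts of at least 233 bases, of which 11 were shared and 258 private. The part of region length in the difference between the lists was not tested.

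The genes with the highest fold values in both lists were FTL (516 in wild type, 257 in knockout), EEF2 (251 and 247), RPS12 (559 and 226), RPL41 (425 and 209), H1-2 (252 and 199), RPLP1 (552 and 185), RPL37A (325 and 177) and H2BC12 (282 and 169). FTL is the light chain of the iron store ferritin, and EEF2 moves the ribosome along the message. The ribosomal proteins and the linker histone H1-2 are among the most abundant messages of dividing cells. With a mean of 115 to 6461 CPM, all 8 were well above 10 CPM in RNA-seq.

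Messages of cytosolic ribosomal proteins were higher in the wild type list. Of 83 genes, 81 had regions in both, with a median highest fold value of 232 in wild type and 64.8 in knockout. In RNA-seq, 80 of the 83 reached a mean of at least 10 CPM, and 6976 of all 9746 such genes had regions in both. The median difference, knockout minus wild type, was -1.77 on the log2 scale against 0.48 over all genes in both lists, and 80 of 81 were higher in wild type. RPS29 was the exception by fold value, with 111 and 115. None of the 81 lay above the median difference of all genes, and none was higher in knockout by number of steps. Genes whose longest transcript with a region had 501 to 1000 bases also lay lower in knockout, with a median of -0.96 (516 genes, 163 higher in knockout). The part of transcript length in the values of ribosomal proteins and globins was not tested. In RNA-seq, 81 of these genes were tested, of which 2 rose and 8 fell, against 5.17% and 8.79% of all tested genes.

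Globins followed the same direction in the IgG lists and the opposite one in RNA-seq. HBE1, the embryonic beta-like chain, had the highest fold value of the wild type list, 628, and 123 in knockout. The fetal chains HBG2 and HBG1 had 606 and 559 in wild type and 126 and 96.1 in knockout. The adult alpha chains HBA1 and HBA2 had 226 and 213 in wild type against 53.5 and 57.9 in knockout. HBZ, the embryonic alpha-like chain, had 289 and 27.3. The 7 globins in both lists had a median difference of -2.27 on the log2 scale, and all 7 were higher in wild type. HBG1 with HBG2 and HBA1 with HBA2 are near-identical, so the split within each pair is uncertain.

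In RNA-seq, HBZ was counted at 57.9 and 59.3 CPM in wild type and at 242 and 244 CPM in knockout. The groups did not overlap, and HBZ rose by 2.05 (SE 0.07) on the log2 scale (adjusted p = 1.605e-05, edgeR). HBG1 rose by 1.17 (SE 0.10, adjusted p = 0.000476, edgeR) and HBA1 by 1.16 (SE 0.07, adjusted p = 0.000138, edgeR). Of the 8 globins tested, 6 rose and none fell, against 5.17% and 8.79% of all tested genes. HBG1, HBG2, HBA1, HBA2 and HBZ thus had lower IgG fold values in knockout beside higher RNA counts. HBE1 was counted at 0.786 to 2.56 CPM in RNA-seq. HBD had a fold value of 11.6 in wild type alone, and HBB and HBM were found in knockout alone, at 4.98 and 5.12.

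Replication-dependent histones, whose messages end in a stem-loop in place of a poly(A) tail, had higher values in the knockout list. Of 67 genes, 43 were in both lists and 10 in knockout alone. A mean of at least 10 CPM was reached by 44 of the 67, and 6976 of all 9746 such genes had regions in both. The median highest fold value was 8.01 in wild type and 53.2 in knockout, and the median difference was 2.55 on the log2 scale. Of the 43, 40 were higher in knockout. H3C2 had 5.57 and 160, H4C3 7.32 and 160, H1-4 4.62 and 114, and H3C7 2.74 and 84.7. H1-2 and H2BC12, named above, were higher in wild type. In RNA-seq, H1-4 was at 1525 and 1341 CPM in wild type and at 1644 and 1621 CPM in knockout (adjusted p = 0.259, edgeR). It passed the threshold without the filter on low counts (0.27 on the log2 scale), with the knockout libraries kept apart (0.19) and without either wild type library (0.24 and 0.14). Of the 44 tested histone genes, 1 rose and none fell, against 5.17% and 8.79% of all tested genes.

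Other abundant messages lay between these groups. For 12 glycolytic enzymes the median was 67.0 in wild type and 23.1 in knockout (GAPDH 122 and 36.0), and for 8 chaperones of the endoplasmic reticulum 34.8 and 21.4 (CALR 139 and 33.3). All 8 chaperone genes fell in RNA-seq, against 8.79% of all tested genes. Cytoskeletal genes had medians of 85.6 and 51.3, with VIM at 85.1 and 93.2. The 10 translation factors had 61.4 and 32.0. Of 15 mitochondrially encoded genes in both lists, 7 were higher in knockout, but 3 were above the median difference of all genes, and by number of steps none was higher in knockout. The ribosomal RNAs MT-RNR1 and MT-RNR2 had 24.4 and 76.8 in wild type and 88.0 and 85.8 in knockout. The ac4C antibody lists gave them 26.5 and 70.3 in wild type and 18.9 and 12.9 in knockout, the opposite direction.

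Among the nuclear and snoRNA-host lncRNAs, values diverged from gene to gene. MALAT1, a nuclear-speckle RNA, had 64.6 in wild type and 379 in knockout, and KCNQ1OT1, the antisense RNA that silences an imprinted domain, 7.52 and 105. SNHG14 had 3.46 and 66.5. The short host RNAs went the other way, with SNHG29 at 74.4 and 13.7, SNHG5 at 76.7 and 18.6 and GAS5 at 70.3 and 25.5. Of 25 lncRNAs in both lists, 15 had the higher fold value in knockout, 12 were above the median difference of all genes, and 4 were higher in knockout by number of steps. Their median difference was 0.45, against 0.48 over all genes. The part of transcript length in the values of these lncRNAs was not tested.

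Erythroid regulators were nearly all in the background lists. Of 12, 11 had regions in both, and SOX6, a repressor partner in globin switching, had one in knockout alone (17.7). A mean of at least 10 CPM was reached by 11 of the 12, and 6976 of all 9746 such genes had regions in both. GATA1 had 68.6 in wild type and 34.0 in knockout, and KLF1 62.5 and 29.8. RUNX1 had 1.72 in wild type, near the lowest wild type fold value of 1.58, and 22.1 in knockout. BCL11A, a repressor of fetal globin, had 4.02 and 42.6. GATA1 fell in RNA-seq by 0.42 (SE 0.09) on the log2 scale (adjusted p = 0.0203, edgeR), from 362 and 368 CPM to 277 and 267 CPM. SOX6 rose from 5.68 and 5.66 CPM to 17.5 and 17.3 CPM (1.62, SE 0.17, adjusted p = 0.00123, edgeR). Of the 9 enzymes of heme synthesis, 5 were in both lists. All 9 reached a mean of at least 10 CPM, as did the 9746 genes of which 6976 were in both. ALAS1, ALAS2 and PPOX were in wild type alone and ALAD in knockout alone, against 613 and 1343 of those 9746 genes. UROD had 45.3 in wild type and 9.96 in knockout.

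The difference in fold value between the IgG lists varied with transcript length. For genes whose longest transcript with a region had 501 to 1000 bases, the median difference, knockout minus wild type, was -0.96 on the log2 scale (516 genes). It was -0.80 between 1001 and 2000 bases, 0.39 between 2001 and 5000 bases and 1.47 above 5000 bases. Genes with transcripts of up to 500 bases were spread widely (median 0.30, quartiles -1.18 and 2.30, 92 genes). Of the 2246 genes above 5000 bases, 1974 had the higher fold value in knockout. The ac4C antibody lists, which share the inputs, gave -0.81, -0.66, 0.42 and 1.52 in the classes from 501 bases up.

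**Figure D4:**
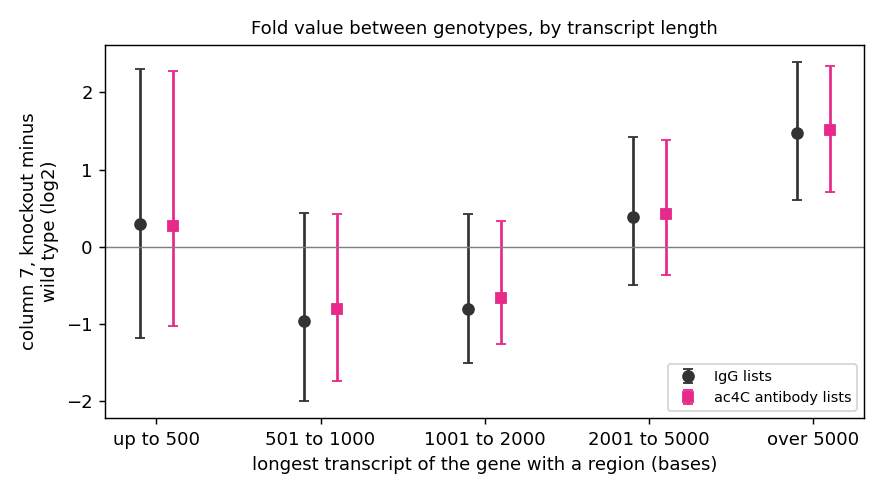
Difference in the highest fold value of a gene, knockout minus wild type on the log2 scale (y axis), in classes of the longest transcript with a region (x axis, bases); points are medians, bars span the quartiles over genes, black is IgG and pink the ac4C antibody. The IgG medians run from -0.96 at 501 to 1000 bases to 1.47 above 5000 bases.

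Genes with an IgG region in wild type alone were mostly short, moderately expressed messages. Their longest transcript had a median of 1938 bases, against 2496 for genes in knockout alone and 3328 for genes in both. Of these 1162 genes, 400 (34.4%) had a region in the knockout ac4C antibody list. Of the 9005 genes in knockout alone, 153 (1.70%) had one in the wild type ac4C antibody list. Among genes in wild type alone, the highest IgG fold value was that of MT2A, a metallothionein that binds zinc and copper (30.1), and its relative MT1X had 22.3. XAGE1B and XAGE1A, near-identical cancer-testis genes, had 24.9 and 24.7 and no count in RNA-seq. VKORC1, the vitamin K epoxide reductase, had 18.1, GCHFR, a regulator of biopterin synthesis, 18.5, and PPP1R14C, a phosphatase inhibitor, 17.3. The lncRNA AP002387.1 had 22.9. Above 10 CPM, the class also held NFU1, an iron-sulfur cluster carrier (16.9), NTMT1, an N-terminal methyltransferase (16.3), TMEM205, a membrane protein (16.3), ISG15, a ubiquitin-like modifier (16.0), AMHR2, the receptor of anti-Müllerian hormone (15.4), and MRPL22 of the mitochondrial ribosome (14.8).

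Genes with a region in knockout alone were led by structured RNAs. RN7SL5P had 678, SNORD3A 499, RN7SL4P 475, and the 7SK copies RN7SKP71, RN7SKP203 and RN7SKP80 251, 210 and 194. Among coding genes above 10 CPM, SENP7, a SUMO protease, had 153 on a transcript of 435 bases. It was followed by MUC1, a membrane mucin (54.9), H4C4 (53.0), GCC2, a Golgi protein (50.7), DNAJC10, an endoplasmic reticulum disulfide reductase (47.7), H1-5 (46.1), FTO, an RNA demethylase (44.1), and ZNF543 (41.1). SENP7 was counted at 24.4 and 27.0 CPM in wild type and at 24.5 and 24.5 CPM in knockout (adjusted p = 0.794, edgeR), so the groups overlapped. ISG15, from the opposite class, was at 17.0 and 13.4 CPM in wild type and at 16.4 and 15.4 CPM in knockout (adjusted p = 0.816, edgeR), again with overlapping groups.

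RNA-seq, which is independent of the peak lists, was used to ask how far genes in each class changed. Of 16277 tested genes, 841 rose and 1430 fell in knockout (14.0% in all, edgeR quasi-likelihood test, adjusted p under 0.05). DESeq2 called 1042 genes. Without the filter on low counts 1925 rose and 1588 fell, with the knockout libraries kept apart 5476 were called, and without wild type library 1 or 2 the counts were 6761 and 7003. The 2 knockout libraries differed by about counting noise (chi-square per degree of freedom 1.03, against 12.5 between the wild type libraries). Their sum entered the fit as 1 sample, assumed to vary like the wild type. Nothing says that the libraries came from separate cultures. The p-values of this fit therefore measure the spread between the 2 wild type libraries alone, and not a spread between cultures. In bulk RNA, fewer cells with a transcript and less RNA per cell cannot be told apart.

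Changed genes were found in every class. Of 986 tested genes with a region in wild type alone, 34 rose and 106 fell (14.2% together). Of 3251 with a region in knockout alone, 130 rose and 226 fell (11.0%). Of 7851 genes in both lists, 565 rose and 828 fell (17.7%), and of 4189 in neither 112 rose and 270 fell (9.12%). The share of falls was 10.8% for wild type alone and 6.95% for knockout alone, against 8.79% of all tested genes. Without the filter on low counts, 187 of 1068 genes in wild type alone were called (17.5%), 552 of 6885 in knockout alone (8.02%) and 2065 of 8419 in both (24.5%), against 9.51% of all 36946 genes. Differences in these shares between classes were not tested.

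Single genes went in either direction. HMGA2, a chromatin architectural protein, had regions in knockout alone (highest fold value 14.9). It was counted at 1.16 and 1.02 CPM in wild type and at 52.5 and 51.9 CPM in knockout, and rose by 5.58 (SE 0.17) on the log2 scale (adjusted p = 9.18e-06, edgeR). CPVL, a serine carboxypeptidase, had regions in wild type alone (7.92) and fell by 4.23 (SE 0.31, adjusted p = 0.000277, edgeR), from 9.14 and 10.4 CPM to 0.442 and 0.586 CPM. WAS, the actin regulator of blood cells, with a fold value of 2.44 in wild type alone, fell by 2.96 (SE 0.20, adjusted p = 0.000209, edgeR). The adaptor STAP1 (fold value 2.01) fell by 3.34 (SE 0.27, adjusted p = 0.000418, edgeR) and the glutamate-receptor gene GRID1 (1.78) fell by 4.12 (SE 0.37, adjusted p = 0.000595, edgeR). In these genes the list with the region was that of the genotype with more RNA. The wild type values of STAP1 and GRID1 lay below 2.28, the lowest fold value of the knockout list, and that of WAS just above it. A region of like value could thus be missing from the knockout list. WAS and STAP1 also had no region in the wild type ac4C antibody list.

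Other genes showed the reverse. ARHGAP15, a Rac GTPase-activating protein, had a fold value of 19.6 in knockout alone, but was counted at 5.20 and 5.19 CPM in wild type and at 0.111 and 0.107 CPM in knockout (log2 change -5.50, SE 0.47, adjusted p = 0.000551, edgeR). GGT5 (fold value 17.9), OSBPL10 (13.1) and MS4A6A (11.2) also had regions in knockout alone, with 2.36 and 3.18, 3.14 and 2.79, and 1.26 and 0.674 CPM in wild type and at most 0.0553 CPM in any knockout library. The region of MS4A6A and that of GGT5 lay on a retained-intron transcript. HBD, AL118508.2, PRKAR1B-AS1 and AL359504.1 had regions in wild type alone and rose in RNA-seq. HBD rose from 2.02 and 2.99 CPM to 9.73 and 8.31 CPM (1.83, SE 0.27, adjusted p = 0.00455, edgeR), and AL118508.2 from 7.80 and 9.43 CPM to at least 24.1 CPM in both libraries (1.51, SE 0.17, adjusted p = 0.00163, edgeR). The lncRNAs LINC02055, AC106744.2 and LINC02267 had regions and RNA in knockout, at 0.959 to 1.86 CPM, and at most 0.0786 CPM in any wild type library. MS4A6A, LINC02267 and AL359504.1 were no longer called without knockout library 1. AL359504.1, which rose by 1.78 on the log2 scale, was then at 1.53, and it was not called with DESeq2 either (1.83). DESeq2 gave no adjusted p for MS4A6A and LINC02267. The fold changes of the genes near 0 counts are not given.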

How the data were processed

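Peak lists were deposited in transcript coordinates (GENCODE identifiers) with a fold ratio (column 7) and −log10 q for each summit. The series' design text describes merging of both replicates for signal tracks, and the lists are marked as merged, so each was taken as 1 pooled list per group. Per the submitters' processing notes the tools were Bowtie2, MACS2, bedtools and ChIPseeker beside STAR, featureCounts, cutadapt, Trimmomatic, SAMtools and DESeq2, with the build GRCh38.p13 and no versions. RNA-seq was deposited as raw counts per gene, with duplicates removed by the authors per the file headers, and 10388717 to 18778485 counts per library. The read depth of the pull-downs is unknown. Ribo-seq was not used here.

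Summits with the same transcript, start and end were merged to a region with its highest fold value, and a gene took its highest region. RNA-seq was fitted with edgeR 4.0.16 (TMM, filterByExpr, quasi-likelihood, Benjamini-Hochberg, 0.05) in R 4.3.3 with the knockout pair summed. SE is the log2 change over the root of F. DESeq2 1.42.0 was an alternative. The fit and the overlap counts were tested on simulated data. Genes named are the 8 highest per class (shared genes by the lower of both values), the same among coding genes of at least 10 CPM, the 4 with the largest called RNA rise and fall per private class, NAT10, and list members. CBX5, NEAT1, ANKRD52, SON and BCYRN1 were named after their values were seen. Members and lists were chosen with earlier results of these data known. The 44 identifiers of Y pseudoautosomal copies were left out of gene counts.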

Additional observations from a re-analysis of the deposited data

How the results depend on the processing

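The IgG shares moved with the rule, and the cause was not tested unless the setting itself gives it. The shared percentage in wild type and in knockout was 58.4 and 47.5 at −log10 q of at least 5, 63.3 and 36.7 at a fold value of at least 4, 72.8 and 38.5 with 1 transcript per gene, 35.3 and 20.8 at a reciprocal overlap of 50%, 61.3 and 46.7 at 50% of the shorter region, and 55.2 and 53.0 with regions of at least 200 bases. At a fold value of at least 4, 24200 wild type and 50691 knockout regions and 5397 genes in both remained. With 1 transcript per gene there were 12035 and 31674 regions, with median lengths of 792 and 302 bases and median fold values of 3.92 and 6.12. Genes changed in RNA-seq numbered 1042 with DESeq2, 3513 without the filter on low counts (1925 rose, 1588 fell, against 841 and 1430), 5476 with the knockout libraries kept apart, and 4983 with the replicate block added to that. With DESeq2, the libraries kept apart and the block, genes with a region in wild type alone had 69, 323 and 292 calls (187 without the filter). Those in knockout alone had 143, 876 and 800 (552 without the filter), and those in both 675, 3335 and 3042 (2065 without the filter). Leaving out 1 library gave 2077 to 7003 changed genes, 131 to 389 in wild type alone, 322 to 1107 in knockout alone and 1293 to 4145 in both, the high values when either wild type library was left out: 6761 without replicate 1 and 7003 without replicate 2. In those fits the spread came from the knockout pair alone. Same-numbered libraries of the genotypes did not deviate together (r = -0.03 over 13231 genes). The knockout pair differed by about counting noise (chi-square per degree of freedom 1.03), so this value cannot show whether the numbers mark a pairing. Of the genes named with an RNA change, 3 that were not called turned direction: leaving out 1 library gave ISG15 log2 changes of -0.062 to 0.209, SENP7 of -0.178 to 0.048 and HBE1 of -0.024 to 1.502 (called at the upper value, without wild type replicate 1), and SENP7 stood at 0.0050 without the filter. Read depth of the pull-downs is unknown, so regions missing from a list may lie below its limit of 48 steps in wild type or 16 in knockout.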
